A study of Homo sapiens with 12 samples.

Results

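Translation initiation factors are the proteins that bring a ribosome to a messenger RNA and set it on its start codon. Their genes were taken by symbol from both deposited tables: all rows whose name starts with EIF1 to EIF6, without the eIF2 kinases, the Y-linked copy of EIF1AX, readthrough genes with a hyphenated name and pseudogenes. This gave 50 of 26485 genes, 47 of them above 0 in all 4 group means and 45 with a mean of 10 or more normalized reads in each table. The cells were HEK293T, an established human embryonic kidney line, transfected with polyethylenimine and a PX330-GFP plasmid. That plasmid carried a guide RNA named 6T or a guide RNA against luciferase, each with Cas9 or without it, so that a guide and the plasmid backbone were shared by treated and control cells. PolyA RNA was sequenced in 12 libraries, 3 for each of the 4 groups. The question the design puts to these genes is whether cells with the Cas9 nuclease carry other amounts of their transcripts than cells without it.

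Initiation starts when the eIF2 complex, bound to GTP, hands the initiator tRNA to the small ribosomal subunit, where eIF1, eIF1A, eIF3 and eIF5 hold the subunit ready to scan. The cap-binding protein eIF4E, the scaffold eIF4G and the helicase eIF4A recruit that subunit to a capped messenger RNA, and the 4E-BPs block eIF4E. Phosphorylation of eIF2 stops its exchange factor eIF2B and lowers initiation across the cell, and eIF5B joins the large subunit at the end.

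The deposited tables give 2 means per guide, called A and B, and do not state which of them held Cas9, so all differences below are B against A, and A in the 6T table need not match A in the luciferase table. Reads of single libraries were recovered from the means. Libraries are called A1 to A3 and B1 to B3 by falling size factor, the scaling divisor of a library, and these numbers are not the replicate numbers of the labels. Reads in genes ranged from 6345953 to 8259449 in 6T A, 6643211 to 8299800 in 6T B, 5889021 to 8238183 in luciferase A and 19388992 to 38113380 in luciferase B. Nothing in the labels says that replicates came from separate cultures, so the tests measure only the spread between these libraries. Of 8 markers of HEK293T, including NEFM, VIM, KRT8 and PAX2, all 8 had a mean of 10 or more. Of 12 markers of other cell types 3 reached that mean and 2 were at 0, and their summed level was 590.3 to 732.4 in 6T A, 615.8 to 691.3 in 6T B, 585.6 to 764.9 in luciferase A and 611.7 to 733 in luciferase B.

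The 50 genes took 1.22% of the reads in genes in 6T A, 1.2% in 6T B, 1.13% in luciferase A and 1.17% in luciferase B. These shares leave out 3 genes that are listed at 0 in every mean. EIF4A1, the main eIF4A helicase of most cells, is at chr17:7572706-7579005 (GRCh38), and 83.5% of its exon bases lie in the readthrough gene SENP3-EIF4A1 on the same strand. That readthrough gene had means of 1.75, 6.57, 6.14 and 6.69 normalized reads in the order 6T A, 6T B, luciferase A and luciferase B. EIF3C and EIF3CL, copies of a core subunit of eIF3, are at chr16:28688558-28735730 and chr16:28379579-28403879. Their coding sequences did not differ at any of 2739 aligned bases, and 98.7% of the 50-base words of EIF3C were also in EIF3CL. In these data 19.4% to 24.6% of all reads were listed as not uniquely aligned and 1.33% to 1.4% as ambiguous between genes. Whether such reads include those of EIF4A1, EIF3C and EIF3CL was not tested, and a listed 0 is therefore given here as listed and not as absence of the transcript.

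EIF5AL1 is a copy of EIF5A, the hypusine-bearing factor. Its coding sequence differed from that of EIF5A at 5 of 462 bases, and 66.3% of the 50-base words were shared. The first 120 coding bases of both are shown because they make the near identity visible, with the differing bases in capitals (GENCODE 29, GRCh38).
EIF5A: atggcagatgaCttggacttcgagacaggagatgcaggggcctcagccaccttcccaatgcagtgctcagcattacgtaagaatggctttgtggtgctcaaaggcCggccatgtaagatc
EIF5AL1: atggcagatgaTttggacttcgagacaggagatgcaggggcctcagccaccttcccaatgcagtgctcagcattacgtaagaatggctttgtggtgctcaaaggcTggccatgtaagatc
The level of EIF5AL1 was 0.106 to 0.117 times that of EIF5A in all 12 libraries, a 1.1-fold range. Both were steady by the SD of log2 normalized reads over the libraries (0.0807 and 0.0889), as was EIF3L (0.0791), so this ratio cannot tell where the reads arose. Whether reads of EIF5A were assigned to EIF5AL1 was not tested, and with so much shared sequence the value of EIF5AL1 is uncertain. The pair EIF1 and EIF1B, which both guard the choice of start codon, differed at 61 of 339 coding bases and shared no 50-base word. The same stretch of this pair shows 17 differing bases.
EIF1: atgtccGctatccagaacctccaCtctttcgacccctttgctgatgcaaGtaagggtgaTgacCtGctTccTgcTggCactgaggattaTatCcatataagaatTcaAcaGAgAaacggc
EIF1B: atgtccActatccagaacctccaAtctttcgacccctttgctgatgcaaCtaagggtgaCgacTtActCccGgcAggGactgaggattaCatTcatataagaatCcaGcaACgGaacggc
EIF1B stood at 0.059 to 0.12 times EIF1, a 2.04-fold range, so the ratio of this pair varied over libraries more than that of EIF5AL1 and EIF5A. The pairs also differ in the GC content of their coding sequences, 42.8% and 45.1% for EIF1B and EIF1 against 51.5% and 51.7% for EIF5AL1 and EIF5A. Their ratios are therefore no test of how reads were assigned. EIF4A1 and EIF4A2 differed at 275 of 1214 aligned coding bases, and EIF5A and EIF5A2 at 129 of 459.

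Among the factors that choose the start codon, EIF1 had the highest level. Per kilobase of annotated exon its mean over the 4 groups was 2581 normalized reads, against 504 for EIF1B and 418 for EIF5, the GTPase activator of eIF2. EIF1AD had 163 and EIF1AX, which keeps the scanning ribosome open, 117. Without division by length the means were 6028 for EIF1, 2817 for EIF5, 516 for EIF1AX, 509 for EIF1B and 478 for EIF1AD. The order below EIF1 therefore depends on annotated exon length. EIF1 had 6843, 5856 and 7239 normalized reads in 6T A, 6978, 9584 and 5307 in 6T B, 4710, 5212 and 5262 in luciferase A, and 5069, 5211 and 5065 in luciferase B. All 6 luciferase libraries lay below all 6 libraries of the 6T guide, and 6T B2 stood highest. EIF1AD, a relative of eIF1A by its domain, had 520.5, 506.7 and 449.2 in 6T A and 478.8, 378.4 and 467.1 in 6T B, and these ranges overlap.

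The 3 subunits of eIF2 did not have equal levels. EIF2S3, the GTP- and tRNA-binding gamma subunit, had 1185 normalized reads per kilobase over the 4 means, EIF2S2, the beta subunit, 544, and EIF2S1, the alpha subunit phosphorylated in stress, 180. EIF2S1 had 818.1, 1389 and 1014 normalized reads in 6T A, 885.9, 842 and 1274 in 6T B, 880.2, 879.9 and 399.8 in luciferase A, and 1072, 1081 and 806.1 in luciferase B. Luciferase A3 was the lowest library and 6T A2 the highest, 3.47 times apart, and the groups overlap. EIF2S2 ranged only from 1278 to 1670, so that EIF2S1 was 0.293 times EIF2S2 in luciferase A3 and 0.904 times in 6T A2. EIF2S3 ranged from 2883 to 4031. The 5 subunits of eIF2B lay within 198 to 318 per kilobase, with EIF2B4 highest and EIF2B2 lowest. The order of these 2 rests on annotated exon length, 2.156 kb for EIF2B4 and 4.314 kb for EIF2B2. Without division by length their means over the 4 groups were 686 and 853 normalized reads. EIF2B5, the catalytic subunit, had means of 714, 655, 792 and 743 normalized reads in the order 6T A, 6T B, luciferase A and luciferase B. For EIF2B1 these means were 1041, 983, 982 and 977. EIF2B2 had 869, 800, 901 and 842, and EIF2B4 had 678, 648, 740 and 676. EIF2B3 had 527, 540, 424 and 497, the largest ratio of highest to lowest mean among the 5 at 1.27. Of the proteins that bring tRNA without eIF2, EIF2D had 618 per kilobase and EIF2A 350.

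The 12 measured eIF3 genes spread widely per kilobase. EIF3I, a WD-repeat subunit, was highest at 3739 over the 4 means, followed by EIF3D at 2451, which can itself bind caps, and EIF3G, an RNA-binding subunit, at 2307. EIF3J, a loosely bound subunit, was lowest at 169, and EIF3F stood at 261. EIF3F has 7.548 kb of annotated exon but only 1071 coding bases, so its level per kilobase depends on which length is used. Without division by length EIF3A had the highest mean over the 4 groups, at 6895 normalized reads, and EIF3I had 5452. EIF3E, a core subunit, had the largest ratio of highest to lowest mean of the 12, at 2.51, and stood at 2196, 2044, 874 and 1576 per kilobase in 6T A, 6T B, luciferase A and luciferase B. Neighbours in the order of levels such as EIF3D (2318 to 2626) and EIF3G (2175 to 2562) overlap over the 4 means.

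**Figure D1:**
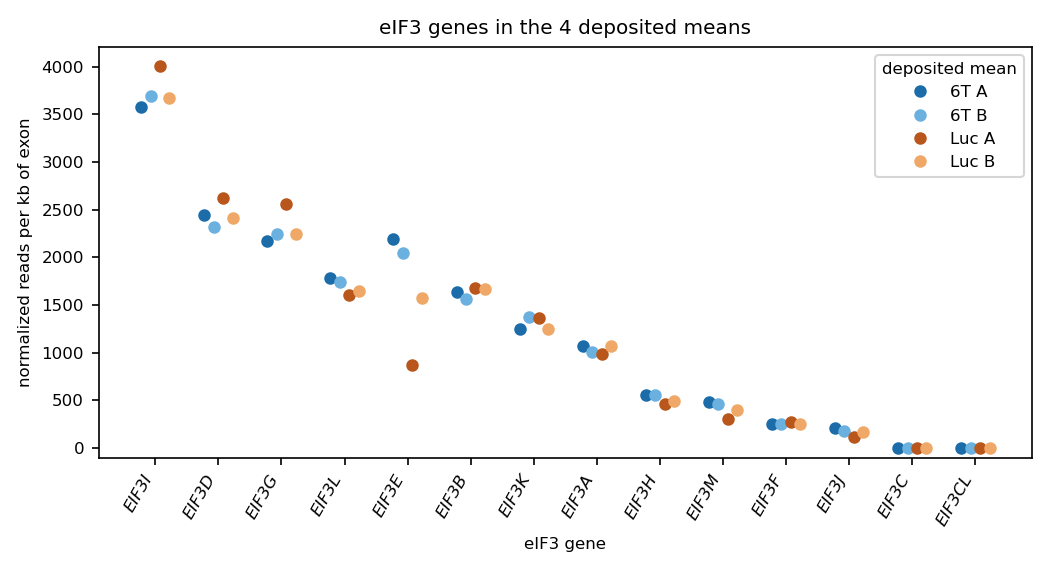
Normalized reads per kilobase of annotated exon (vertical axis, linear) of the 14 eIF3 genes in the 4 deposited means (Luc, luciferase guide), ordered by their average. EIF3I stands highest, EIF3E has the widest range of means (874 to 2196), and EIF3C and EIF3CL are listed at 0.

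EIF3E is also the member whose libraries differed most. It had 1696, 5793 and 2677 normalized reads in 6T A, 2273, 3148 and 4039 in 6T B, 1534, 1720 and 791.4 in luciferase A, and 3284, 2558 and 1455 in luciferase B. The lowest and highest libraries, luciferase A3 and 6T A2, were 7.32-fold apart, and libraries of 1 group differed by more than the group means. EIF3J showed the same order at its ends, with 328.2, 872.4 and 395.3 in 6T A, 398.8, 430.1 and 562.7 in 6T B, 322.5, 318.6 and 242.9 in luciferase A, and 576.2, 440.8 and 314.2 in luciferase B. EIF3M, a core subunit, had 2244, 2813 and 2292 in 6T A, 2277, 2170 and 2483 in 6T B, 1716, 1820 and 1115 in luciferase A, and 2054, 2068 and 1840 in luciferase B. For EIF3M every luciferase library was below every 6T library, and luciferase B was above luciferase A in all 3 libraries. EIF3G had 2864, 2640 and 2975 in luciferase A and 2233, 2516 and 2687 in luciferase B, which overlap. By contrast EIF3L, EIF3A, EIF3F and EIF3D had ranges of 1.19-, 1.21-, 1.24- and 1.25-fold over all 12 libraries. EIF3E was 0.128 times EIF3D in luciferase A3 and 1.04 times in 6T A2.

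**Figure D2:**
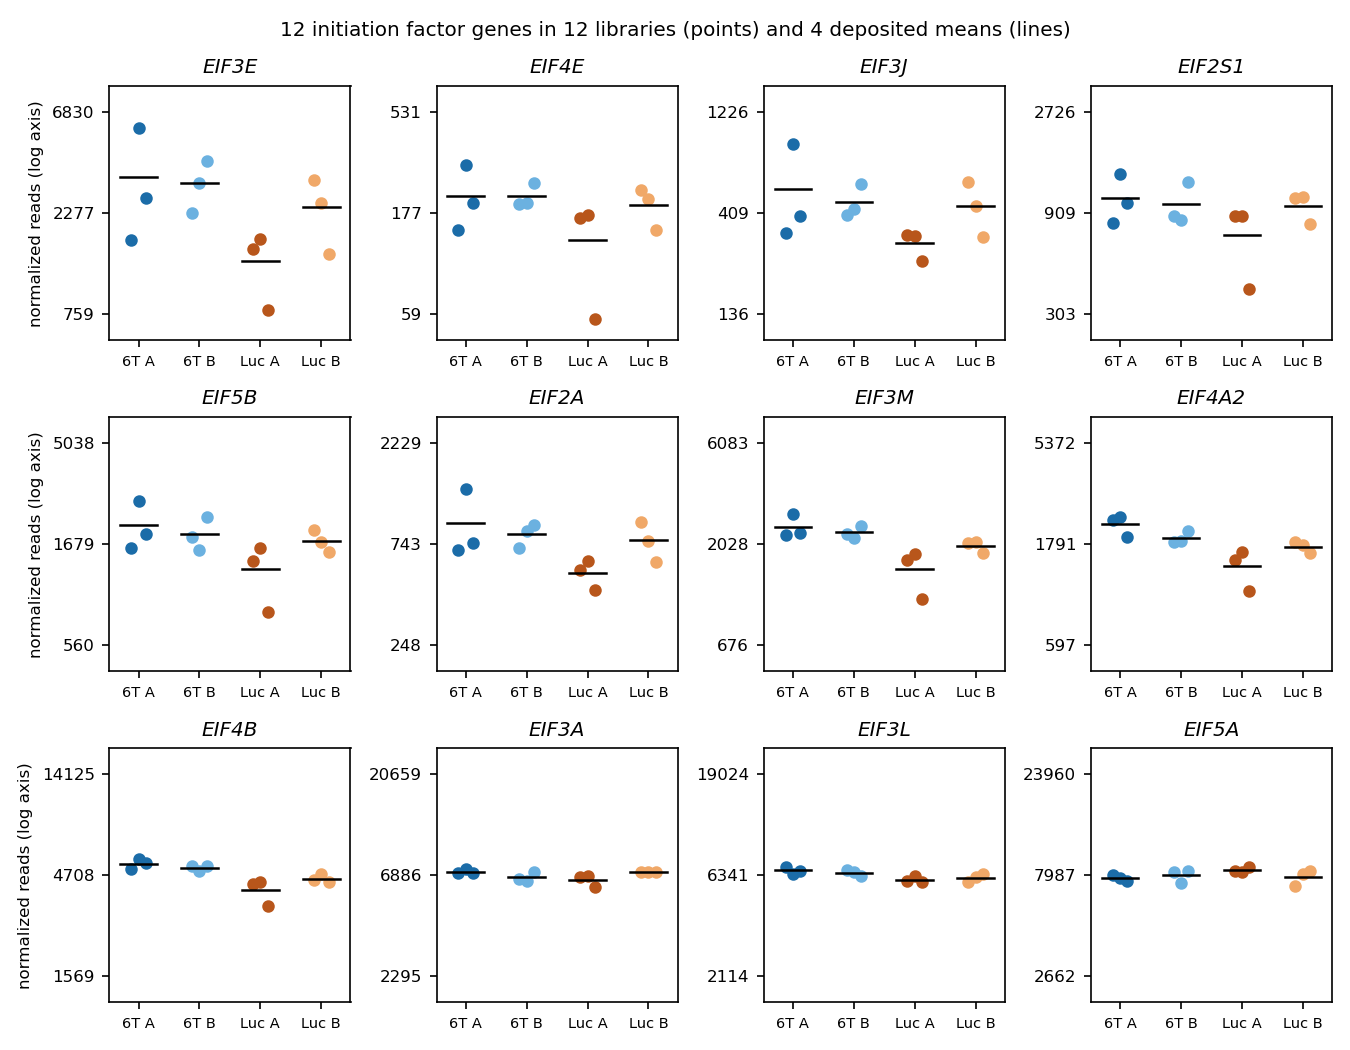
Normalized reads (log axes, each spanning the same fold range) of 12 initiation factor genes in the 3 recovered libraries of each group (points) with the deposited mean of the group (line). EIF3E, EIF4E, EIF3J, EIF2S1, EIF5B and EIF2A spread by 3-fold or more between luciferase A3 and 6T A2, while EIF3A, EIF3L and EIF5A stay within about 1.2-fold.

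Among the cap-binding factors, EIF4E2, a form that can repress translation, had 161 normalized reads per kilobase, EIF4E3 25.5 and EIF4E itself 15.6. The annotated exons of EIF4E add up to 12.096 kb for 651 coding bases, which lowers its value on this scale. EIF4E had 147, 298.3 and 198.4 normalized reads in 6T A, 195.8, 198.3 and 245.7 in 6T B, 168.5, 173.2 and 56.17 in luciferase A, and 227.4, 207.7 and 147.2 in luciferase B. Luciferase A3 again was lowest and 6T A2 highest, and A and B overlap with either guide. EIF4E2 had 917.3, 933.5 and 798.4 in 6T A, 790.4, 668.9 and 916.1 in 6T B, 888.7, 864.5 and 738.5 in luciferase A, and 804.1, 894.6 and 860.4 in luciferase B. EIF4E3 ranged from 232 to 327. EIF4E1B, a form of germ cells, was near 0, with means of 2.57, 0.465, 2.28 and 1.97, and was tested by limma only in the setting without a filter. EIF4ENIF1, which carries eIF4E into the nucleus, ranged from 486 to 597.7.

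Of the inhibitors of eIF4E, EIF4EBP1 had 2066 and EIF4EBP2 382 normalized reads per kilobase of annotated exon over the 4 means. That order rests on the 7.257 kb of annotated exon of EIF4EBP2, and without division by length the means over the 4 groups were 2107 and 2773 normalized reads. EIF4EBP1 had 1923, 1793 and 2277 in 6T A, 2539, 3378 and 1911 in 6T B, 1782, 1771 and 2754 in luciferase A, and 1563, 1731 and 1862 in luciferase B. 6T B2 and luciferase A3 stood highest, and A and B overlap with either guide. EIF4EBP2 had 3201, 3222 and 3137 in 6T A, 2723, 2885 and 3065 in 6T B, 2505, 2705 and 1789 in luciferase A, and 2781, 2783 and 2476 in luciferase B. In the 6T table every B library of EIF4EBP2 was below every A library. EIF4EBP1 was 0.557 times EIF4EBP2 in 6T A2 and 1.54 times in luciferase A3, the reverse order of libraries from EIF3E. EIF4EBP3 had means of 2.98, 2.66, 5.69 and 3.51, and 73.4% of its exon bases are shared with the readthrough gene ANKHD1-EIF4EBP3, so its level is uncertain.

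The scaffold EIF4G1 had 1668 normalized reads per kilobase, EIF4G2, which lacks the eIF4E site, 1431, and EIF4G3 287. EIF4G1 had deposited means of 10303, 9937, 11839 and 11040. Its reads in luciferase B could not be assigned to single libraries, so it was left out of the limma fits that include that group. EIF4G2 had 6562, 8532 and 6336 in 6T A, 5993, 5637 and 7741 in 6T B, 6195, 6293 and 4175 in luciferase A, and 7012, 6649 and 5947 in luciferase B, and EIF4G3 ranged from 1664 to 2182. The helicase EIF4A2 had 2342, 2400 and 1944 in 6T A, 1839, 1863 and 2067 in 6T B, 1514, 1636 and 1077 in luciferase A, and 1830, 1772 and 1624 in luciferase B. All of its luciferase libraries lay below all of its 6T libraries. EIF4B, which stimulates eIF4A, had 5017, 5592 and 5398 in 6T A, 5189, 4911 and 5202 in 6T B, 4295, 4386 and 3375 in luciferase A, and 4475, 4748 and 4376 in luciferase B, with no overlap between guides. EIF4H, which also stimulates eIF4A, ranged from 3590 to 4641, and EIF4A3, part of the exon junction complex, from 2604 to 3329.

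Of the late factors EIF5A was highest, at 3819 per kilobase, against 10.0 for EIF5A2. EIF5A ranged from 7103 to 8689 and EIF5A2 from 39.19 to 83.62 normalized reads. EIF5B had 1620, 2686 and 1872 in 6T A, 1812, 1585 and 2252 in 6T B, 1406, 1619 and 799.6 in luciferase A, and 1967, 1725 and 1545 in luciferase B. Its A and B libraries overlap with either guide, and its ends are again luciferase A3 and 6T A2. EIF2A, placed above with the tRNA carriers, had 696.9, 1363 and 753.8 in 6T A, 716.3, 858.8 and 920.6 in 6T B, 560.1, 617 and 451 in luciferase A, and 946.4, 772.7 and 611.7 in luciferase B. EIF6, which keeps the large subunit apart until it is needed, had 1350, 1449 and 1372 in 6T A, 1642, 1592 and 1421 in 6T B, 1558, 1474 and 1788 in luciferase A, and 1276, 1455 and 1511 in luciferase B.

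With the 6T guide, no initiation factor passed the test of B against A, given the spread between libraries. In the authors' deposited DESeq test 0 of 47 members had an adjusted p under 0.05, where 0.0416% of all genes tested did, and 0 of 47 had an unadjusted p under 0.05 (0.868% of all genes). In limma on the recovered reads 0 of 45 had an adjusted p under 0.05 (0.0% of all genes) and 0 of 45 an unadjusted p under 0.05 (2.35%). Over the 45 members the median log2 fold change was -0.066 and 36 were lower in B, beside a median of -0.028 and 57.8% lower over all 14051 genes. The values ran from -0.21 for EIF4A2 (unadjusted p = 0.121 in the authors' deposited table) to 0.39 for EIF4EBP1 (p = 0.138), both with an adjusted p of 1. On recovered reads the difference of EIF4EBP1 was 0.35 in limma, 0.15 without 6T B2 and 0.56 without 6T B3. EIF4E2 at -0.16 (p = 0.269), EIF6 at 0.16 (p = 0.275), EIF4EBP2 at -0.14 (p = 0.313) and EIF1AD at -0.16 (p = 0.331) followed by p in the authors' deposited table. Without 6T B2 the limma differences of EIF4E2 and EIF1AD were -0.050 and -0.054. No member passed a log2 difference of 0.5, which 3.18% of all genes did. EIF4EBP2 was lower in every B library (1 of 45 members, 3.68% of all genes) and EIF3K, a core eIF3 subunit, was higher in every B library (1 of 45, 4.21%), shares near those of all genes. On recovered reads the members' median was -0.073, but -0.012 without the library 6T A2, -0.0097 after correction for GC content and -0.0087 after correction for coding GC content.

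With the luciferase guide, too, no member passed the test. In the authors' deposited DESeq test 0 of 47 had an adjusted p under 0.05 (0.0% of all genes) and 0 of 47 an unadjusted p under 0.05 (1.22%). In limma 0 of 44 had an adjusted p under 0.05 (0.0%), and 4 of 44 an unadjusted p under 0.05, where 9.6% of all genes did. These 4 were EIF2A with a limma log2 difference of 0.51 (SE 0.17), EIF3J with 0.56 (SE 0.21), EIF3E with 0.85 (SE 0.34) and EIF3M with 0.39 (SE 0.17), each with an adjusted limma p of 0.456. The count of 4 was 9 without luciferase A2, 6 without B3 or with total scaling, and 1 without A3 or B2. It was 0 without B1, still 4 after correction for GC content and 1 after correction for coding GC content. How many of all genes had such a p was not counted in these settings, so these counts are not read as results about the members. The limma difference of EIF3M was 0.17 without luciferase A3, 0.051 after correction for GC content and 0.019 after correction for coding GC content. Those of the other 3 after GC and coding GC correction were 0.22 and 0.13 for EIF2A, 0.24 and 0.28 for EIF3J, and 0.52 and 0.44 for EIF3E, and EIF3E had 0.50 without luciferase A3. Without luciferase B1 EIF3J had 0.35. The members' median log2 fold change was 0.038 with 25 of 45 higher in B, beside -0.0053 and 6897 higher over all 14087 genes, and its sign flipped to -0.0094 and -0.033 after correction for GC content and coding GC content. Values of these 45 ran from -0.29 for EIF4EBP1 to 0.85 for EIF3E, and 4 of them (8.89%) passed a difference of 0.5, as did 7.4% of all genes. EIF4EBP3, near 0 and outside the 45, had -0.70 in the authors' deposited table. By p in the authors' deposited table EIF3M came first (0.36, p = 0.0669), then EIF4A2 (0.31, p = 0.104), EIF2A (0.52, p = 0.179), EIF5B (0.45, p = 0.188), EIF3E (p = 0.233) and EIF3G (-0.19, p = 0.246). Without luciferase A3 the limma differences of EIF4A2, EIF5B and EIF4EBP1 were 0.14, 0.20 and -0.051, and after correction for coding GC content 0.048, 0.089 and -0.13. EIF2B3, EIF2S3, EIF3A and EIF3M were higher in every B library (4 of 44, 6.45% of all genes), and 0 of 44 were lower in every B library (9.52%). Luciferase B had 19388992 or more reads per library and luciferase A 8238183 or fewer, and the part of this depth difference in the values was not tested.

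**Figure D3:**
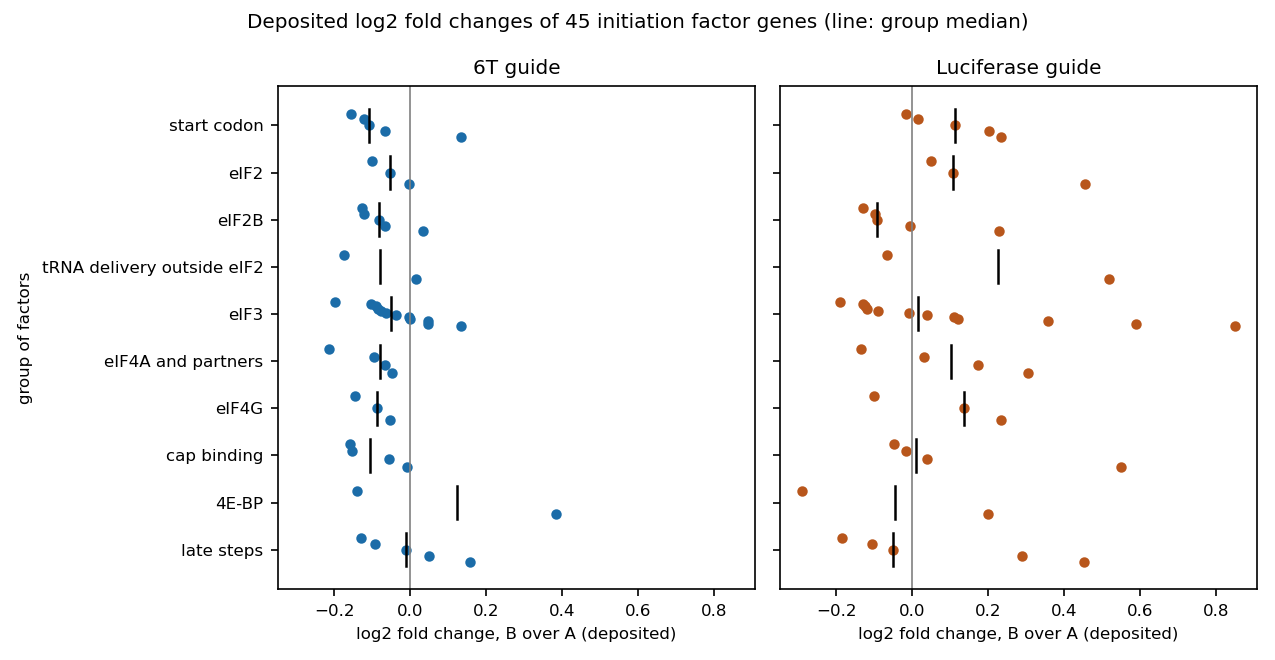
Deposited log2 fold change of B over A (horizontal axis) of 45 initiation factor genes by group of factors, for the 6T guide (left) and the luciferase guide (right), with the median of each group as a line. The 6T values lie between -0.21 and 0.39 and the luciferase values between -0.29 and 0.85, and none passed the adjusted test.

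Whether B against A differed between the guides was tested as an interaction in limma. No member passed (0 of 44 with an adjusted p under 0.05, 0.0% of all genes), and 5 of 44 had an unadjusted p under 0.05, where 9.4% of all genes did. This count was 1 without 6T B1, luciferase A3 or luciferase B1 or after correction for GC content, and 9 without luciferase A2. It was 2 without 6T A2 or luciferase B2, 3 without 6T A3 or B2 or after correction for coding GC content, and 8 without luciferase B3. No share of all genes was counted in these settings, so the changes of this count are not read as results about the members. EIF4A2 had the smallest unadjusted p, with a difference of 0.54 (SE 0.19) and an adjusted limma p of 0.485. The other 4 were EIF6, EIF3K, EIF3A and EIF4EBP1. Since A and B may stand for different conditions in the 2 tables, the sign of these differences has no reading in terms of Cas9.

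Across the 4 means a limma F test called 0 of 44 members (0.114% of all genes), and 13 of 44 had an unadjusted p under 0.05, where 17.3% of all genes did. The count of 13 was 9 after correction for GC content and 5 after correction for coding GC content. In these settings the share of all genes with such a p was not counted. EIF4A2 (adjusted p = 0.143), EIF4B (0.161) and EIF3M (0.162) had the smallest p by this limma F test. Every luciferase library was below every 6T library for 6 of 44 members, EIF1, EIF2S2, EIF2S3, EIF3M, EIF4A2 and EIF4B, where 1.26% of all genes showed this order. For no member was every luciferase library above every 6T library (0 of 44, 1.6% of all genes). This count was made after the values had been seen. It was 4 (0.923% of all genes) with libraries scaled to their totals, without EIF1 and EIF4A2. After correction for GC content it was 1, EIF4B (1.29% of all genes), and after correction for coding GC content also 1, EIF4B (0.991%). It was 7 without 6T A2 and luciferase A3 (1.91%). The labels do not say whether the guides were transfected or sequenced together, so guide and batch cannot be told apart.

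Differences between single libraries moved with base composition. The SD of log2 normalized reads over 12 libraries was above 0.3 for 11 members: EIF3E (0.768), EIF4E (0.593), EIF3J (0.497), EIF2S1, EIF5B, EIF2A, EIF5A2, EIF3M, EIF4EBP1, EIF4A2 and EIF1. The 15 members whose coding sequence has under 45% GC had a median SD of 0.336, beside 0.309 for all 2561 such genes. The 23 members with 50% or more had 0.119, beside 0.156 for 6276 genes. Over members, SD and coding GC had a Spearman correlation of -0.534 (n = 44), and over all genes -0.392 (n = 10718). Both are given as descriptions across genes, which share libraries and scaling.

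Luciferase A3 and 6T A2 stood at the ends. In luciferase A3 the low-GC members had a median deviation of -0.719 log2 units from their own mean over the libraries, and all low-GC genes -0.617. In 6T A2 these values were 0.48 and 0.423. Members with 50% or more GC deviated by a median of 0.09 and 0.0152 in the same libraries. EIF4EBP1, with 64.4% coding GC, and EIF1, with 45.1%, also had SDs above 0.3 but were highest in 6T B2.

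**Figure D4:**
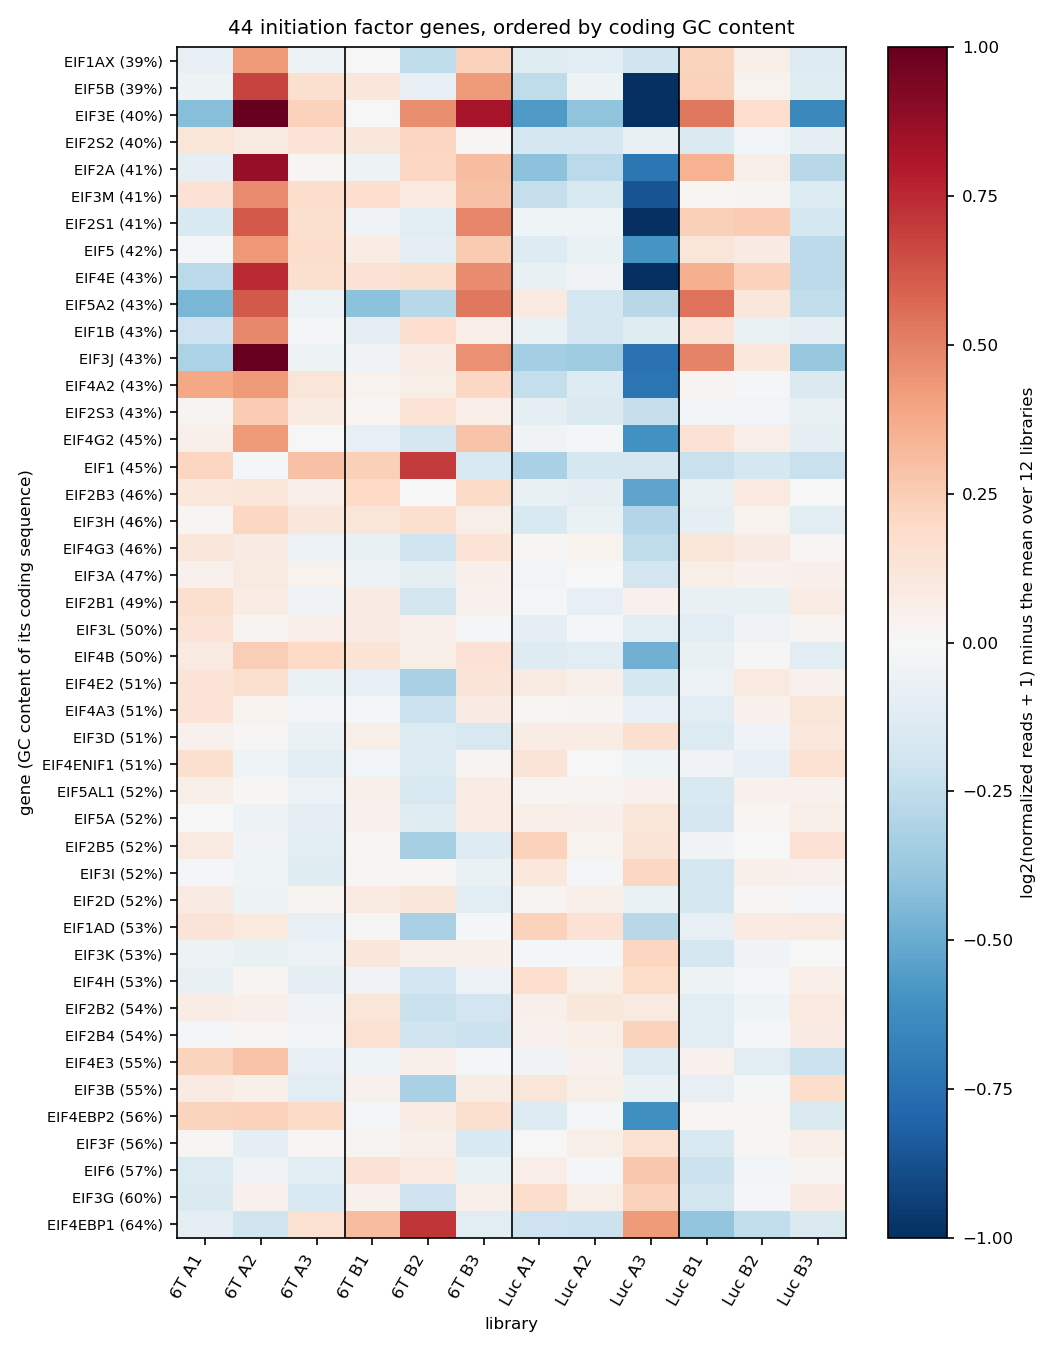
Difference of log2(normalized reads + 1) from the gene's mean over 12 libraries (color, values beyond 1 or -1 shown at the end of the scale) for 44 initiation factor genes, from low coding GC content at the top to high at the bottom. The top rows are high in 6T A2 and low in luciferase A3 (Luc A3), while rows with 50% or more GC are pale in most libraries.

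After a correction of each library for coding GC content, a step chosen after the values had been seen, the fold range of EIF3E over 12 libraries was 3.07 against 7.31 before, that of EIF2A 1.49 against 3.02 and that of EIF5B 1.43 against 3.36. The range of EIF4E was 2.75 against 5.23. The range was wider after correction for some members, among them EIF2S2 (2.06 against 1.31), EIF1AX (1.86 against 1.6) and EIF4EBP2 (2.04 against 1.8). Smaller increases included EIF4E3 (1.5 against 1.41) and EIF3D (1.31 against 1.25). It was nearly the same for EIF1 (1.98 against 2.03) and EIF4EBP1 (2.11 against 2.16). The median SD of the 44 members was 0.117 after correction and 0.143 before, beside 0.162 and 0.198 for all 12508 genes. After the other correction, for GC content of the transcript, these medians were 0.13 for the members and 0.161 for all genes. Fold ranges were then 3.62 for EIF3E, 1.73 for EIF2A and 1.69 for EIF5B, while that of EIF3F was wider (2.08 against 1.24). What sets this dependence on GC content in the libraries was not tested.

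**Figure D5:**
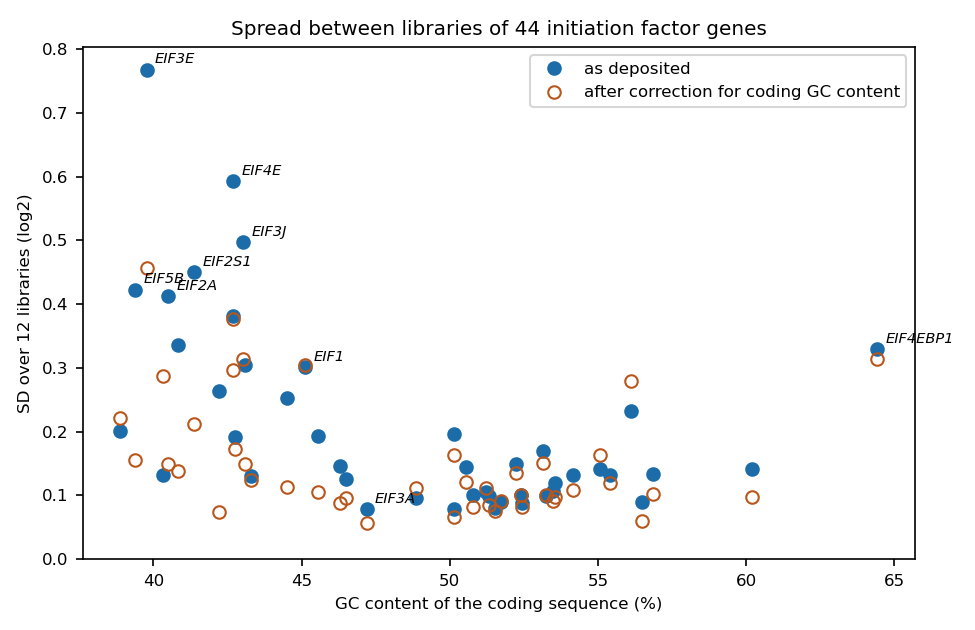
SD of log2 normalized reads over 12 libraries (vertical axis) against the GC content of the coding sequence (horizontal axis) for 44 initiation factor genes, before (filled) and after (open) correction for coding GC content. EIF3E at 0.768 and EIF4E at 0.593 stand highest before correction, and most genes with 50% GC or more lie under 0.2.

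The composition can be read in the sequences. Shown are 90 bases from the middle of the longest coding exon of 5 members with a large ratio of highest to lowest mean. EIF3E, with a larger ratio of 2.51, is not shown. Then follow 3 members of small spread, taken only from those with 50% or more coding GC, so their higher GC was set by that choice. EIF3A had a smaller SD (0.0779) but 47.2% coding GC and was not eligible, and EIF5AL1 was left out. All are on the coding strand with G and C in capitals (GENCODE 29, GRCh38). The first 5 lie at chr15:44557525-44557614 (EIF3J, exon 6 of 8, plus strand), chr3:150572199-150572288 (EIF2A, exon 10 of 14, plus), chr4:98884947-98885036 (EIF4E, exon 6 of 7, minus), chr2:99361440-99361529 (EIF5B, exon 4 of 24, plus) and chr3:186785923-186786012 (EIF4A2, exon 5 of 11, plus).
EIF3J: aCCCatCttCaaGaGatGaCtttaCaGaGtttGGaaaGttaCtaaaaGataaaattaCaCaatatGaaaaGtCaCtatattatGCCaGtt
EIF2A: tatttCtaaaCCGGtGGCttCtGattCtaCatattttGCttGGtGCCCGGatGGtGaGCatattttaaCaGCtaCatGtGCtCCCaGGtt
EIF4E: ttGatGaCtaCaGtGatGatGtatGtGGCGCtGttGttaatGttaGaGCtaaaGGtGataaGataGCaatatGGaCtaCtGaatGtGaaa
EIF5B: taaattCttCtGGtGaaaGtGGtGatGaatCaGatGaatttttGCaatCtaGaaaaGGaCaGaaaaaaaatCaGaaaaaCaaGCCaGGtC
EIF4A2: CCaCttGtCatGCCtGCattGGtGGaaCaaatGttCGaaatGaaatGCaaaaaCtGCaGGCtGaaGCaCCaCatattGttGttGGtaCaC
These stretches hold 30%, 43.3%, 36.7%, 33.3% and 43.3% G and C. The steady members follow, at chr22:37877878-37877967 (EIF3L, exon 11 of 13, plus), chr1:206603033-206603122 (EIF2D, exon 6 of 15, minus) and chr17:7309674-7309763 (EIF5A, exon 2 of 6, plus).
EIF3L: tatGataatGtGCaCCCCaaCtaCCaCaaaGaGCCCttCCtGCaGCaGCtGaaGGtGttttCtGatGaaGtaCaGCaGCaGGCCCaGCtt
EIF2D: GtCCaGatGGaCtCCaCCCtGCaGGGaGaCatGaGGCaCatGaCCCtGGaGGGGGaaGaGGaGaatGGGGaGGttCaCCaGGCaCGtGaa
EIF5A: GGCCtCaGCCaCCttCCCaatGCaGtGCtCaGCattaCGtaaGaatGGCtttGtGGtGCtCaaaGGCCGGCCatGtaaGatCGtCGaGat
These hold 50%, 60% and 53.3%. Over the whole coding sequence the first 5 have 39.4% (EIF5B) to 43.1% (EIF4A2) and the last 3 have 50.1% (EIF3L) to 52.5% (EIF2D).

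In RefSeq promoters (GRCh38.p14, 250 bases before to 50 after the start, found for 42 members), the median GC content was 66.2% for 13 members with low coding GC and 64% for 25 members with high coding GC. Over all 42 members it was 64.7%, while the GC content given for all 35116 promoters was 58.7%. The part of this difference in the motif shares below was not tested. Each of 6 motifs, chosen with the data known, was searched on both strands, and a gene counted if any of its promoters held it. The E-box CACGTG was in 11 of 42 members (26.2%) and in 8.77% of all 27305 genes, with EIF4E, EIF4B, EIF4H, EIF4G1 and EIF4A3 among the 11. CCAAT was in 19 members (45.2%, against 39.7%), the interferon-response core, GAAA repeated after a gap of 2 bases, in 4 (9.52%, against 4.38%) and the ATF4 composite site TGATGNAAN in 1 (2.38%, against 4.45%). The NRF1 palindrome, GCGCA followed directly by TGCGC, and the cAMP-response element TGACGTCA were in 0 members, against 1.52% and 2.25% of genes. These are matches of letters, not sites of binding.

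The genes around these factors gave no call either, in the authors' deposited DESeq test or in limma where they could be fitted. Reads of EEF2 were not recovered in any library, and those of EEF1A1, EEF1G and PABPC1 not in luciferase B. Limma therefore tested EEF2 with neither guide and the others only with the 6T guide. Of 22 helpers of initiation, such as the poly(A)-binding proteins, 0 passed with either guide, and the median log2 fold change was -0.084 with the 6T guide (16 of 22 lower in B, where 57.8% of all genes were lower) and 0.21 with the luciferase guide (19 of 22 higher, where 6897 of 14087 genes were higher). Summed over 21 helpers, single libraries had 20920 to 25200 normalized reads in luciferase A and 24580 to 27680 in luciferase B, and these ranges overlap. Differences of the genes in this and the following lists were not taken without single libraries or after GC correction. LARP4, which binds poly(A), had -0.29 (p = 0.166) with 6T, and DHX29, a helicase for structured leaders, 0.63 (p = 0.0752) with luciferase, as listed in the authors' deposited table. In the authors' deposited table MIF4GD had 0.18 (p = 0.241) with 6T and NCBP1, of the nuclear cap-binding complex, 0.45 (p = 0.0944) with luciferase. DHX29 had 384.3, 349.5 and 203.2 normalized reads in luciferase A and 526.5, 516.5 and 402.5 in luciferase B. NCBP1 had 811.1, 853.7 and 492.3 in luciferase A and 1058, 1011 and 868.5 in luciferase B. For both, luciferase A3 was the lowest luciferase library, and its part in these differences was not tested. Of 13 measured eIF2 kinases, phosphatases and their partners 0 passed, with medians of -0.07 and 0.19. EIF2AK2, the kinase PKR that responds to double-stranded RNA, had 280.5 and 225.4 normalized reads in 6T A and B (-0.32, p = 0.165) and 270.9 and 279.6 in luciferase A and B (0.046, p = 0.943) in the authors' deposited table. DNAJC3, an inhibitor of PKR, had -0.16 with 6T (p = 0.324 in the authors' deposited table). PPP1R15A, the stress-induced partner of the eIF2 phosphatase, had 907 and 1056 with 6T (0.22) and 1456 and 878.3 with luciferase (-0.73, p = 0.104), and the phosphatase subunit PPP1CC 0.5 with luciferase (p = 0.0984), all from the authors' deposited table.

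Of 28 genes of the mTORC1 and MNK pathways, which act on the 4E-BPs and on eIF4E, 0 passed, with medians of 0.0029 with 6T and -0.028 with luciferase. RPS6KB1, the S6 kinase, had -0.22 (p = 0.175) and RRAGB, a Rag GTPase, -0.30 (p = 0.184) with 6T in the authors' deposited table. RPTOR, the scaffold of mTORC1, had -0.35 (p = 0.0521) and PIK3CA, a lipid kinase upstream, 1.00 (p = 0.0835) with luciferase in the authors' deposited table. PIK3CA had 52.13, 64.95 and 14.87 normalized reads in luciferase A and 112.8, 90.13 and 61.93 in luciferase B, which overlap. Of 18 elongation and termination genes 0 passed, with medians of 0.065 and -0.095. DHPS, which makes the hypusine of eIF5A, had 0.22 (p = 0.148) and EEF1D 0.18 (p = 0.21) with 6T, and EEF1E1 had 1.53 (p = 0.112) and DPH1 -0.26 (p = 0.144) with luciferase, from the authors' deposited table. EEF1E1 had 35.16, 40.21 and 21.48 normalized reads in luciferase A and 153, 84.64 and 41.62 in luciferase B. Its luciferase B3 value was thus close to that of luciferase A2. In limma the unadjusted p was under 0.05 for 0, 1, 0 and 0 genes of these 4 lists with 6T and for 3, 3, 4 and 4 with luciferase, where 2.35% and 9.6% of all genes had such a p.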

How the data were processed

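PolyA RNA of 12 HEK293T libraries was sequenced by the authors. Per the submitters' processing notes, STAR, HTSeq, DESeq and hg38 were used, with versions and annotation not given in the sources used here. Per the file headers, the deposited tables hold, as signal, means of normalized read counts for conditions A and B, their fold change (ratio), its log2, and p-values raw and adjusted.

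Each deposited mean was solved as a sum of 3 whole numbers of reads, each times a step of its library. A single solution was found for 99.52% to 99.98% of genes above 0 in a condition. On 72937 simulated means with a single solution 6 were wrong, all in luciferase B. Scaling factors computed jointly from the 12 libraries (median of ratios) matched those behind the deposited values to within 0.0702%, so both tables share a scale. Abundant genes holding 14.2% to 14.4% of the reads in luciferase B were not recovered. Search bounds were revised by the share solved and by this simulation. Columns of per-sample values not used number 0.

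limma 3.58.1 (R 4.3.3, trend) was fitted to log2(normalized reads + 1) of genes with a mean of 10 or more, with Benjamini-Hochberg adjustment over all genes. Tested on simulated data with 2-fold changes in 200 genes, it recovered 88.5% of them with the 6T guide and 93.5% with luciferase. It recovered 89.5% in the F test and 70.5% in the interaction. For the interaction, the 6T B reads of changed genes were reordered 6T A reads, so their 6T difference held no sampling noise. The 70.5% can therefore be too high. No simulated library carried a shift with GC content, so these shares need not hold for members with low coding GC. Lengths and GC content came from GENCODE 29 and were found for all 50 members. Precision is limited by 3 libraries a group. Values per library are given for the 6 members with the smallest p in each table (mean of 50 or more), the 6 with the largest ratio of means and close relatives. Up to 2 genes per list with the smallest p are named. Members and lists were chosen with earlier results of these data known. The GC classes, the coding GC correction, the ratios of relatives, the order of guides, the motifs and the sequences shown were chosen after the values were seen. Alternatives were another pseudocount, no filter, total scaling, GC correction and leaving out each library.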

Additional observations from a re-analysis of the deposited data

How the results depend on the processing

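No initiation factor had an adjusted p under 0.05 in limma with a pseudocount of 5, without a filter, with total scaling, with either GC correction or without any 1 library, or in the authors' deposited test adjusted over genes with a mean of 10 or more. The members' median log2 fold change without 1 library was -0.1 to -0.012 with the 6T guide and 0.024 to 0.069 with the luciferase guide. The luciferase median was -0.033 after coding GC correction. The members lower in every luciferase than every 6T library numbered 1 under GC correction (1.29% of all genes) and 1 under coding GC correction (0.991%), the count and the second correction being chosen after seeing the data, and 6 to 7 without 1 library (1.33% to 2.3%). Of 286 alternatives for 26 named log2 fold changes, 263 kept their direction, 23 changed it and 0 passed the test. With the 6T guide, leaving out 1 library gave -0.29 to 0.19 for EIF2A, -0.36 to 0.53 for EIF3E (below 0 also at -0.031 and -0.15), -0.36 to 0.35 for EIF3J, -0.14 to 0.024 for EIF3M, -0.20 to 0.31 for EIF4E (also -0.062) and -0.27 to 0.097 for EIF5B (also 0.0058). GC correction gave -0.0097 for EIF3G, 0.0065 for EIF3J and 0.0064 for EIF3M, and coding GC correction 0.0036 for EIF3M. With the luciferase guide, EIF1AD had 0.0073 under total scaling, 0.0072 under GC correction, 0.026 under coding GC correction and -0.16 to 0.097 without 1 library (also 0.053 and 0.054). EIF4E2 had -0.0092 under GC correction and -0.040 to 0.093 without 1 library. The cause of these changes was not tested. No paired analysis was possible because the deposited columns are means and the recovered libraries carry no replicate number. Leaving out libraries was not run for the deposited test, which has no libraries. Depth limits EIF4E1B and EIF4EBP3, which have means under 10.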
